A study of Mus musculus with 2 samples.

Results

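The genes described here are Pkm and 9 other genes of glycolysis (Ldha, Aldoa, Gapdh, Pgk1, Eno1, Tpi1, Pgam1, Hk2 and Slc2a1), 10 of the 21937 gene features that were counted in single cells of mouse embryos. They were taken from the feature tables by symbol. The set had been chosen by its values in these same cells, because its genes were lower in founder embryos than in F1 embryos, so every founder and F1 value of these genes below is a description and carries no test. All 10 symbols were found. Aldoa was listed under a second identifier as well, which held 38 UMIs against 22359 for the main feature and was left out of the sums.

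The E11.5 embryos carried an EGFP transgene linked to a DNA barcode, inserted by the piggyBac transposon and driven by the broadly active CAG promoter. F0_8 and F0_9 were 2 founders, each a single embryo that developed from an injected egg and in which cells can differ in their insertions. F1_1 was a single F1 embryo, and F1_mix pooled cells from more than 1 F1 embryo to imitate a mosaic and is counted here as 1 suspension. All 4 suspensions carried the transgene, were labelled with multiplexing oligos, and were captured together in 1 droplet library, so capture and sequencing were shared. No embryo without the transgene was in the pool. Each generation was thus represented by 2 suspensions, and embryo, litter and the injection itself cannot be told apart from generation.

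Glycolysis splits glucose into pyruvate in the cytosol and yields ATP without oxygen. Glucose enters through membrane transporters, is trapped by hexokinase, cut into triose phosphates by aldolase, oxidised by glyceraldehyde-3-phosphate dehydrogenase and carried through phosphoglycerate kinase, phosphoglycerate mutase, enolase and pyruvate kinase. Lactate dehydrogenase then turns pyruvate into lactate and regenerates the NAD+ that the pathway consumes. Embryos at midgestation rely heavily on this route, many of its genes are targets of the hypoxia inducible factors, and differentiating neurons are known to move from it towards oxidative metabolism.

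The hypoxia inducible factors bind DNA at the core ACGTG. The 4 promoter windows of these genes that held this core at 2 or more places are shown, since they are the densest matches in the set. Each runs from 250 bases before to 50 bases after a RefSeq start on GRCm38.p6 and is written in the direction of the gene. They are Hk2 at chr6:82774405-82774704 on the minus strand, Pgk1 at chrX:106186850-106187149 on the plus strand, Pkm at chr9:59656977-59657276 on the plus strand, and Ldha at chr7:46845554-46845853 on the plus strand. Capitals mark ACGTG or, for the other strand, CACGT.
Hk2: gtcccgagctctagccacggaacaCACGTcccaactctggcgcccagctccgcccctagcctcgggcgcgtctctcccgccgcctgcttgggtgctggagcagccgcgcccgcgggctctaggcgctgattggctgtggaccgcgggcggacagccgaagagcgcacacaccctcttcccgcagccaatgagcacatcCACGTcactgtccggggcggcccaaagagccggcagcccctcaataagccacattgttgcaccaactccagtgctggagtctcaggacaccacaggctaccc
Pgk1: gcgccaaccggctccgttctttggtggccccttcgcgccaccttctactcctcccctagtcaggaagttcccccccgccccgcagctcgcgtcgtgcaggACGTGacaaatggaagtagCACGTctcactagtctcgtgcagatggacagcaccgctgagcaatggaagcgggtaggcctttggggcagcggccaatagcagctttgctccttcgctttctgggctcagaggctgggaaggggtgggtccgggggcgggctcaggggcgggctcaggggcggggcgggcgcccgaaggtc
Pkm: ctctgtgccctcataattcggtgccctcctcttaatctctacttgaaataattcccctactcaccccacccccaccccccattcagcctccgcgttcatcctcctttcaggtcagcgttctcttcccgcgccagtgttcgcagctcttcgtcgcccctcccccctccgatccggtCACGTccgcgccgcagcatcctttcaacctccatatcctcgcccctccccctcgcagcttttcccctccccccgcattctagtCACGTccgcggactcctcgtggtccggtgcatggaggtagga
Ldha: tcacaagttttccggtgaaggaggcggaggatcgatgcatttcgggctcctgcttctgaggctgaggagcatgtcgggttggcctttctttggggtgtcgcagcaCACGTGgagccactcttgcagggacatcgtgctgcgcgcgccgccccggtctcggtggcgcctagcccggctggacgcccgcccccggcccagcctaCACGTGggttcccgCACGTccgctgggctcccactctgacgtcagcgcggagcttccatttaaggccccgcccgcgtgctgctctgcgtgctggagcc

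In the Pkm window the cores began at -75 and 9 from the start, in Pgk1 at -150 and -131, and in Hk2 at -226 and -52. In Ldha they fell in 3 runs, of which 2 were the palindrome CACGTG that reads the same on each strand and therefore counts as 2 overlapping matches, giving 5 matches in all. Of the 16 windows of the 10 genes, 9 (56.25%) held the core on either strand, and these belonged to 8 of the 10 genes, all but Eno1 and Tpi1. Among windows of genes with a UMI in these cells the share was 23.05%, and 19.62% of all windows in that RefSeq set held it. Counted by gene, the shares were 26.4% and 21.78%, against 80% of the 10 genes. The Aldoa windows with a core overlap, and their cores at -126 and -202 are the same site. The windows of the 10 genes were also richer in CG pairs, with a median of 23.5 per window against 17 and 7, and ACGTG holds a CG pair, so the shares were not matched for base composition. A match is a description of these letters and not a binding site.

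The cells used were the 5678 in the cell table of the authors, which gave 68972620 gene UMIs, of which 311926 were from the 10 genes. The suspensions held 1310 to 1599 cells and 16052917 to 19160116 UMIs, and no barcode was shared between suspensions. The median depth per cell was 10880 and 11904.5 in the founders against 12996 and 13267 in F1, so the founder cells were also the shallower ones. Cell type names are those of the authors. In 4 types (Endodermal Progenitor, Foregut, Hepatocyte and Midgut) the median cell held 721.5 to 1674 UMIs, with 23.04% to 55.9% of them mitochondrial, and none of these 4 had the highest level of its own 4 defining markers. They are called shallow here, and the Midgut cells held 0 UMIs of Cdx2, Cdx1, Sox17 and Vil1. Of the other 12 types, called deep, 6 had the highest level of their own markers. Hematoendothelial Progenitor/Endothelium was among these 6, but the macrophage markers C1qa, Csf1r, Adgre1 and Fcgr1 were also highest in it. They were at 12.82 UMIs per 10000 outside mitochondrial genes there, above the 6.092 of its own endothelial markers. The markers of Chondrocyte were highest in Gut Mesenchyme/Amniotic Mesoderm (6.872 UMIs per 10000 outside mitochondrial genes against 5.352 in Chondrocyte), and those of Gut Mesenchyme/Amniotic Mesoderm were highest in Chondrocyte (7.756 against 3.625), so these names were not told apart by their markers. The Neuroectoderm/Glia cells went against their name, with 74.74 UMIs, on the same scale, of the neuronal markers Tubb3, Stmn2, Elavl3 and Elavl4, above the 61.78 in CNS Neuron, and only 0.392 of the glial and neural crest markers Sox10, Foxd3 and Erbb3. Founders and F1 were compared in the 13 types with at least 20 cells in every suspension, 9 of them deep, and means and medians of the generations over deep types are over these 9.

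Founder values are given as F0_8 then F0_9, and F1 values as F1_1 then F1_mix. Values are levels, that is UMIs of a gene per 10000 gene UMIs over the summed cells of a type and suspension. The chemistry tags the 3′ end of a transcript once, so a level does not grow with transcript length and genes can be set side by side. It also means that the M1 and M2 splice forms of Pkm are not separated. Reads from near-identical copies, of which Gapdh and Eno1 have many in the genome, could not be separated either. Over all cells used, Gapdh gave 114431 UMIs, Pkm 49703, Ldha 34757, Pgam1 25091, Tpi1 23281, Aldoa 22359, Pgk1 19190 and Eno1 18322. Both genes at the entrance of the pathway were far rarer, with 3450 UMIs of Slc2a1 and 1342 of Hk2.

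The summed level of the 10 genes differed widely between cell types. It was 63.78 in Epithelial Cell, 61.92 in Myoblast/Cardiomyocyte and 61.37 in Neuronal Progenitor, and the ranges over the 4 suspensions overlapped between these neighbours. Erythroblast and Hematoendothelial Progenitor/Endothelium followed with 59.08 and 58.22. Lower in the order were Ependymal Cell (52.69), Chondrocyte (46.23), Mesodermal Progenitor (39.66) and Gut Mesenchyme/Amniotic Mesoderm (34.74). The neuron-rich types had the lowest levels among deep types other than Erythrocyte, 31.22 in CNS Neuron and 24.72 in Neuroectoderm/Glia, and the latter was the only type whose range did not overlap that of the next one down. The shallow types lay between 6.195 and 14.91 and Erythrocyte at 6.696. Some of these low values depend on the denominator. Per 10000 UMIs outside mitochondrial, globin and EGFP features, Endodermal Progenitor was at 27.15 and Erythrocyte at 22.12, near the 25.37 of Neuroectoderm/Glia on that scale. Foregut and Midgut rose as well but stayed below Neuroectoderm/Glia. The types were clustered by the authors on expression in these same cells, so their order is a description. Per 10000 of all gene UMIs, droplets with at most 100 UMIs, which hold free RNA, gave a summed level of 52.52 (95% exact Poisson interval 51.7 to 53.35, counting error only), near the levels of intact cells and above those of the shallow types.

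**Figure D1:**
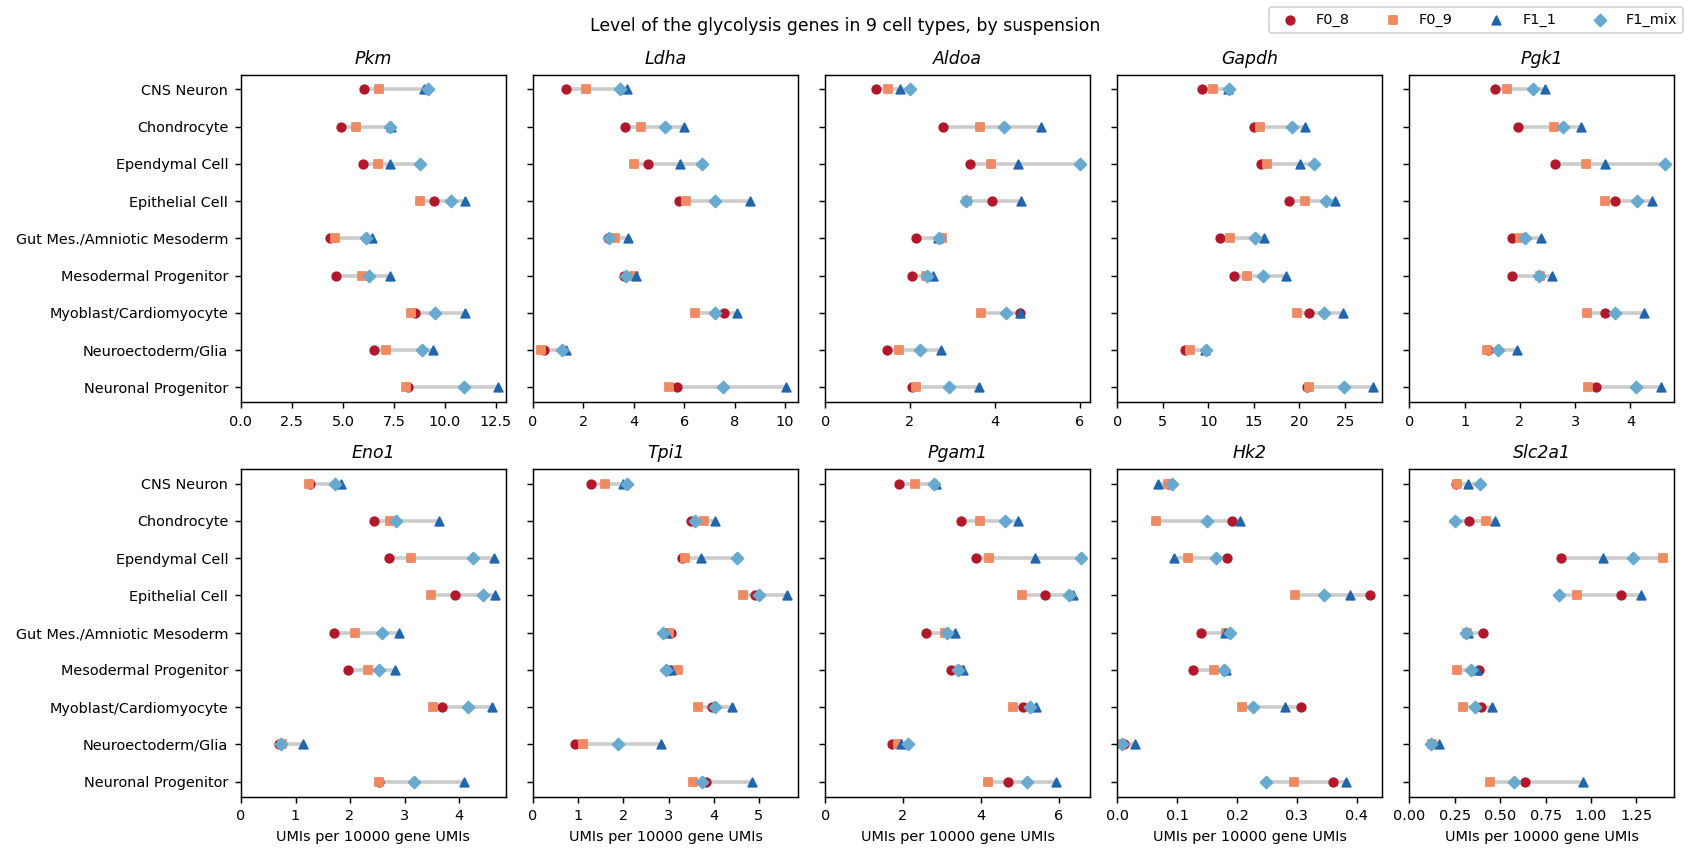
Level of each of the 10 genes (x axis, UMIs per 10000 gene UMIs, own scale in each panel) in 9 deep cell types (y axis), with a point for each suspension (red and orange, founders F0_8 and F0_9, blue, F1_1 and F1_mix) and a grey bar for their range. Pkm and Gapdh have both founders to the left of both F1 suspensions in 9 of 9 types, while the colours mix for Hk2 and Slc2a1.

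Summed over the 10 genes, both founders lay below both F1 suspensions in 9 of 9 deep types. Averaged over these types the summed level was 39.97 and 41.49 in the founders against 53.22 and 49.68 in F1. The founders were close to each other and F1_1 was the highest of the 4. The log2 ratio of founders to F1 ranged from -0.47 in CNS Neuron to -0.20 in Myoblast/Cardiomyocyte, with a median of -0.38, which is a 1.30-fold higher level in F1. In the 13 types the median was the same and the groups did not overlap in 11, the exceptions being the shallow Foregut and Midgut. Gene by gene, 73 of 130 pairs of a gene and a cell type had both founders below both F1 suspensions, 3 had both above and 54 overlapped.

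Read against all features, the counts were as follows. Of 99241 pairs of a feature and a cell type that passed the filter on low counts, 19.8% had both founders below both F1 suspensions and 20.8% had both above. Of the 106 pairs of these genes that passed, 70 (66.04%) were below and 1 (0.943%) was above. At an adjusted p of 0.05 (edgeR's quasi-likelihood test, adjusted by Benjamini-Hochberg over the features of a type), 0.26% of all pairs were called lower in founders and 0.492% higher, against 16 and 0 of the 106. The genes were chosen on this contrast, so nothing is read from these counts. The 16 calls were Pkm in 5 types, Ldha and Gapdh in 4 each, and Aldoa, Eno1 and Tpi1 in 1 each, while Pgk1, Pgam1, Hk2 and Slc2a1 had none. When F0_8 was left out, 2 pairs of these genes were called.

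**Figure D2:**
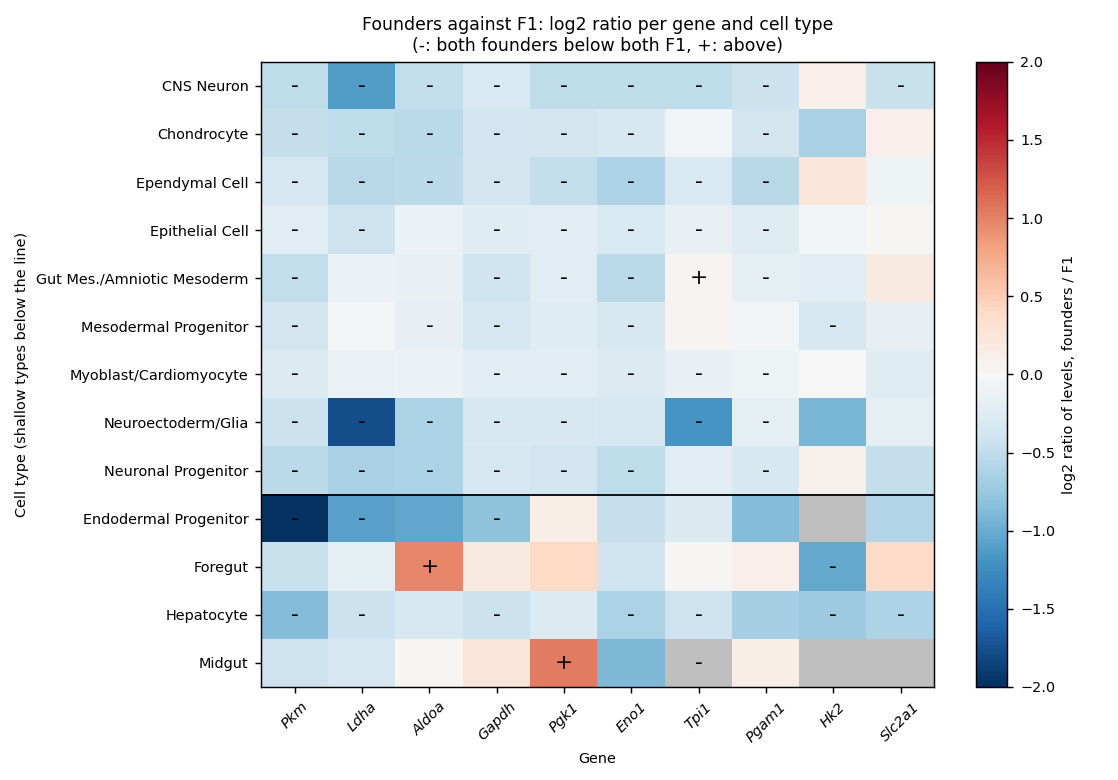
log2 ratio of the founder to the F1 level (colour, mean of log2 levels per generation, scale -2 to 2) for each gene (x axis) in 13 cell types (y axis, shallow types below the line). A minus marks both founders below both F1 suspensions (73 of 130), a plus both above (3), and grey a ratio that cannot be formed because a suspension held 0 UMIs.

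Slc2a1 (ENSMUSG00000028645, chr4:119108745-119137330) encodes GLUT1, the main glucose transporter of embryonic cells, of red cells and of endothelial barriers. Its level was highest in Erythroblast (1.369), Ependymal Cell (1.124) and Epithelial Cell (1.07) and lowest in Neuroectoderm/Glia (0.126). In Neuronal Progenitor it was 0.636 and 0.446 in the founders against 0.954 and 0.574 in F1, so the generations overlapped. They overlapped in 8 of the 9 deep types, and in CNS Neuron alone both founders (0.256 and 0.260) were below both F1 suspensions (0.321 and 0.389). In Erythroblast, which was not fitted because F1_1 had only 7 such cells, the order was the other way round, with 1.153 and 2.171 in the founders and 0.638 and 0.657 in F1.

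Hk2 (ENSMUSG00000000628, chr6:82725025-82774454) encodes hexokinase 2, the insulin- and hypoxia-responsive form that phosphorylates glucose. It was the rarest of the 10 genes, and its level among deep types was 0.507 in Hematoendothelial Progenitor/Endothelium, 0.364 in Epithelial Cell and 0.320 in Neuronal Progenitor. In Neuroectoderm/Glia only 2 and 1 UMIs were counted in the founders and 3 and 1 in F1. In Neuronal Progenitor the levels were 0.360, 0.295, 0.382 and 0.249 in the same order, and founders and F1 overlapped there as in 8 of 9 deep types. Its median log2 ratio over deep types was -0.05, the smallest of the set.

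Aldoa (ENSMUSG00000030695, chr7:126795234-126800994) encodes aldolase A, which cleaves fructose bisphosphate and is the form of muscle and red cells. Its level was 8.269 in Erythroblast and 6.985 in Hematoendothelial Progenitor/Endothelium, and 1.619 in CNS Neuron. In Neuronal Progenitor it was 2.054 and 2.151 in the founders against 3.617 and 2.93 in F1. That difference, a log2 ratio of -0.63, was matched by -0.63 in Neuroectoderm/Glia and by -0.54 in Chondrocyte. In Epithelial Cell, Gut Mesenchyme/Amniotic Mesoderm and Myoblast/Cardiomyocyte the generations overlapped, and the log2 ratios were between -0.14 and -0.11.

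Tpi1 (ENSMUSG00000023456, chr6:124810586-124814158) encodes triose phosphate isomerase, which interconverts the products of aldolase. Its level was 7.112 in Erythroblast and 5.128 in Epithelial Cell. In Neuroectoderm/Glia it was 0.930 and 1.106 in the founders against 2.837 and 1.874 in F1, a log2 ratio of -1.19. In the mesenchyme it did not follow. In Gut Mesenchyme/Amniotic Mesoderm the founders had 3.049 and 3.019 and F1 2.937 and 2.881, so both founders were above both F1 suspensions, by a log2 ratio of 0.06. In Mesodermal Progenitor and Chondrocyte the generations overlapped. Over deep types Tpi1 had both founders lower in 5 and higher in 1.

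Gapdh (ENSMUSG00000057666, chr6:125161852-125166467) encodes the oxidising enzyme of the pathway and is often used as a constant reference gene. It was the most abundant of the 10 in each deep type. In Neuronal Progenitor, its highest type, the level was 20.86 and 21.06 in the founders against 28.09 and 24.93 in F1. In CNS Neuron it was 9.305, 10.55, 12.21 and 12.23. The founders were below F1 with no overlap in 9 of 9 deep types, and the log2 ratio stayed within -0.40 and -0.22. Gapdh was not at a constant share of the UMIs in these embryos, either between types or between suspensions.

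Pgk1 (ENSMUSG00000062070, chrX:106187100-106203699) encodes phosphoglycerate kinase, the first step that forms ATP, and is X-linked. In Neuronal Progenitor it was 3.384 and 3.237 in the founders against 4.562 and 4.098 in F1. In CNS Neuron it was 1.544, 1.761, 2.451 and 2.233. Founders were below F1 in 8 of 9 deep types, Mesodermal Progenitor being the type of overlap, with a median log2 ratio of -0.31. The summed level of 4 Y-linked genes, averaged over the 9 fitted deep types, was 2.558 and 0.0242 in the founders against 0.0228 and 1.216 in F1, so the Y-linked signal did not divide the suspensions by generation. The part of sex in the glycolysis values was not tested.

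Pgam1 (ENSMUSG00000011752, chr19:41911871-41918665) encodes the brain form of phosphoglycerate mutase. Its level was 5.907 in Epithelial Cell and 1.886 in Neuroectoderm/Glia. In Ependymal Cell it was 3.869 and 4.209 in the founders against 5.393 and 6.563 in F1, its largest difference among fitted deep types at a log2 ratio of -0.56. Founders were lower in 8 of 9 deep types, and the ratios nearest 0 were -0.06 in Mesodermal Progenitor and -0.11 in Myoblast/Cardiomyocyte.

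Eno1 (ENSMUSG00000063524, chr4:150236708-150248879) encodes enolase 1, the embryonic form of the enzyme that makes phosphoenolpyruvate. A related feature, Eno1b, held 212 UMIs against 18322 for Eno1, and reads shared between them are uncertain. In Gut Mesenchyme/Amniotic Mesoderm Eno1 was 1.71 and 2.088 in the founders against 2.901 and 2.584 in F1, a log2 ratio of -0.54. In Ependymal Cell the ratio was -0.61. Founders were below F1 in 8 of 9 deep types, with overlap in Neuroectoderm/Glia, where the level was the lowest among fitted deep types (0.795).

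Pkm (ENSMUSG00000032294, chr9:59656576-59679372) encodes the muscle-type pyruvate kinase, whose M2 splice form prevails in embryonic and dividing cells. Its pooled level was highest in Neuronal Progenitor (10.16), Epithelial Cell (10.04) and Myoblast/Cardiomyocyte (9.663), and the ranges over suspensions overlapped among them. CNS Neuron (7.745) and Neuroectoderm/Glia (7.707) kept a mid-range level although their summed level was the lowest of the deep types other than Erythrocyte. Erythroblast stood at 3.498 and Erythrocyte at 0.193, where Pklr, the red cell and liver form of pyruvate kinase, reached 1.277 in Erythroblast.

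In Neuronal Progenitor Pkm was 8.207 (95% exact Poisson interval 7.807 to 8.623) and 8.107 (7.695 to 8.534) in the founders against 12.58 (12.12 to 13.04) and 10.95 (10.54 to 11.37) in F1. The generations were well apart, but F1_1 and F1_mix also differed by more than their counting error, so counting error is not the spread between embryos. In CNS Neuron the levels were 6.04, 6.746, 8.964 and 9.149 in the same order. In Gut Mesenchyme/Amniotic Mesoderm they were 4.388, 4.605, 6.448 and 6.135. Each of the 9 deep types showed this order of generations, with log2 ratios from -0.52 in Neuronal Progenitor to -0.22 in Epithelial Cell and a median of -0.42. The median log2 ratio within a generation was 0.13 between the founders and -0.09 between the F1 suspensions. In Hematoendothelial Progenitor/Endothelium, with 15 to 25 cells in a suspension and macrophage markers above its endothelial ones, the order was not seen. Pkm there was 7.13 and 7.712 in the founders and 7.153 and 4.845 in F1. The F1_1 cells of this type also held far more embryonic globin RNA than those of the other suspensions.

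Ldha (ENSMUSG00000063229, chr7:46842274-46855627) encodes the A subunit of lactate dehydrogenase, which favours the formation of lactate. Its level ran from 11.19 in Erythroblast and 7.893 in Hematoendothelial Progenitor/Endothelium down to 2.646 in CNS Neuron and 0.699 in Neuroectoderm/Glia. In Neuroectoderm/Glia it was 0.414 (0.327 to 0.517) and 0.307 (0.230 to 0.401) in the founders against 1.292 (1.078 to 1.537) and 1.152 (0.980 to 1.347) in F1. This was the widest separation of the set in a fitted deep type, a 3.42-fold higher level in F1, on 53 to 158 UMIs per suspension. In CNS Neuron it was 1.302, 2.087, 3.726 and 3.447, a log2 ratio of -1.12, and in Neuronal Progenitor 5.725, 5.388, 10.03 and 7.545, a log2 ratio of -0.65. In Chondrocyte it was 3.641 and 4.294 in the founders against 6.004 and 5.223 in F1, a log2 ratio of -0.50. In 3 deep types the generations overlapped: Mesodermal Progenitor had 3.617 and 4.008 in founders and 4.09 and 3.707 in F1, and the others were Gut Mesenchyme/Amniotic Mesoderm and Myoblast/Cardiomyocyte. Among fitted deep types the largest Ldha differences were thus found in neural ones, whereas Pkm and Gapdh showed no overlap in any of the 9.

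Ldhb is the B subunit gene, whose product favours the use of lactate. It differed less between the generations than Ldha in Neuroectoderm/Glia, CNS Neuron and Neuronal Progenitor. In Ependymal Cell it differed more, with a fitted log2 ratio of -1.21 against -0.57 for Ldha. In Neuroectoderm/Glia the Ldhb level was 3.484 and 3.508 in the founders against 4.24 and 3.522 in F1. Ldha therefore made up 10.62% and 8.042% of the Ldha and Ldhb UMIs in the founders and 23.36% and 24.65% in F1. In CNS Neuron the Ldha share was 30.2% and 40.4% against 58.44% and 54.33%, and in Neuronal Progenitor 69.19% and 71.21% against 86.31% and 79.46%. In Chondrocyte the share was also lower in founders, 50.37% and 52.53% against 71.17% and 62.97%. Ependymal Cell went the other way, with 56.71% and 51.99% in founders and 47.78% and 40.27% in F1, and there Ldhb was 3.482 and 3.713 in founders and 6.386 and 9.947 in F1. Ldhb was fitted in 11 types and called in none by edgeR's quasi-likelihood test, with 7 types at an unadjusted p under 0.05, where it was higher in founders in Chondrocyte (log2 ratio 0.425) and Neuronal Progenitor (0.379) and lower in the other 5. The Ldha shares of Chondrocyte and Neuronal Progenitor thus carry a higher Ldhb level in founders as well as a lower Ldha level. DESeq2 called it lower in founders in Ependymal Cell.

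**Figure D3:**
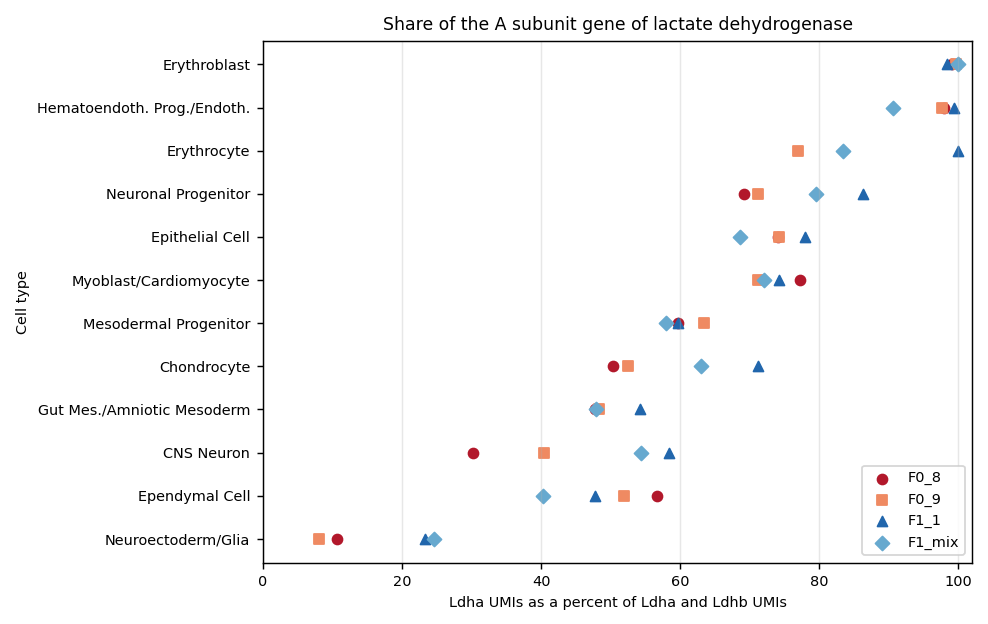
Ldha UMIs as a percent of Ldha and Ldhb UMIs (x axis) in the 12 deep cell types (y axis, ordered by the pooled share), with a point for each suspension that held UMIs. Neuroectoderm/Glia is lowest, with 8.042% to 10.62% in founders and 23.36% to 24.65% in F1, and Erythroblast is at 98.33% or more in all 4 suspensions.

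Markers of neural cells also differed between the generations, in neural types and in others. In Neuroectoderm/Glia the summed level of Tubb3, Stmn2, Elavl3 and Elavl4 was 65 and 70.46 in the founders against 82.03 and 80.45 in F1, and that of the progenitor markers Sox2, Pax6 and Neurog2 was 0.903 and 0.654 in the founders against 0.485 and 0.467 in F1. In Neuronal Progenitor the progenitor markers were 6.909 and 6.691 in founders and 5.881 and 4.916 in F1. In CNS Neuron both sets were lower in the founders, the progenitor markers at 2.234 and 2.819 against 3.13 and 2.92 in F1, and the neuronal markers at 59.52 and 56.26 against 60.22 and 65.2. In Ependymal Cell the progenitor markers were higher in the founders, 2.851 and 2.412 against 1.774 and 1.231, as were Sox10, Foxd3 and Erbb3 together, 2.362 and 3.193 against 1.869 and 1.497, while the neuronal markers overlapped. In Epithelial Cell the progenitor and neuronal markers overlapped between the generations, and Sox10, Foxd3 and Erbb3 together were at 0.603 and 0.593 in the founders against 0.643 and 0.692 in F1. Of the mesenchymal types, the neuronal markers were at 1.004 and 0.860 in the founders against 0.416 and 0.567 in F1 in Gut Mesenchyme/Amniotic Mesoderm, and at 0.563 and 0.533 against 0.346 and 0.322 in Chondrocyte. Sox10, Foxd3 and Erbb3 together were at 0.1004 and 0.0975 against 0.0358 and 0.0378 in Gut Mesenchyme/Amniotic Mesoderm. In Mesodermal Progenitor they were at 0.1004 and 0.0278 against 0.0152 and 0.0245, and the neuronal markers overlapped there. The part of these markers in the differences of the glycolysis genes was not tested.

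The erythroid cells stood apart. In Erythroblast Ldha was 9.347 and 8.339 in the founders against 22.91 and 16.55 in F1, and Pkm was 2.54, 2.726, 8.902 and 5.228. Those F1 values rest on 7 and 21 cells, against 64 and 52 in the founders. The summed level of the 10 genes was 50.33 and 52.27 in founders against 104.5 and 75.83 in F1, so the separation was wide, but the type was not fitted. The globin genes of these cells differed as well. The adult beta globin gene Hbb-bs was at 543 and 668.6 in the founders against 6.206 and 76.26 in F1, and the adult alpha globin gene Hba-a1 at 224.1 and 263.7 against 8.547 and 38.1. The embryonic Hbb-y was at 31.35 in F1_1 and at 0.322 to 0.569 in the other 3 suspensions. The part of these differences between the cells in the glycolysis values of Erythroblast was not tested. Ldha made up 98.33% to 99.92% of the Ldha and Ldhb UMIs.

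In the shallow types the counts were too low for a comparison of most genes. In Endodermal Progenitor Pkm had 6 and 4 UMIs in founders and 15 and 33 in F1, which gave the largest log2 ratio among the 13 fitted types, -1.98. Tpi1 had 0 UMIs in both founders in Midgut, with upper 95% limits of 0.338 and 0.816 per 10000, and 2 and 4 UMIs in F1, so no difference was detectable at this depth. Of the 40 pairs of a gene and a shallow type, 12 had both founders lower, 2 higher and 26 overlapped.

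Among single cells the difference was seen at the median and the 10th percentile in each deep type, but not at the 90th percentile in all. Only cells with at least 5000 UMIs were used, and each cell's own total was the denominator. In each of the 9 deep types both the 10th percentile and the median of the summed level were lower in each founder than in each F1 suspension, and the 90th percentile was so in 7. In Neuronal Progenitor the medians were 48.3 and 48.11 in the founders against 73.14 and 63.13 in F1. In Neuroectoderm/Glia they were 20.4, 22.09, 30.1 and 25.98. The share of founder cells under the F1 median ran from 66.36% in Myoblast/Cardiomyocyte to 79.02% in Neuroectoderm/Glia. Cells of a suspension are not replicates, so these shares carry no test.

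**Figure D4:**
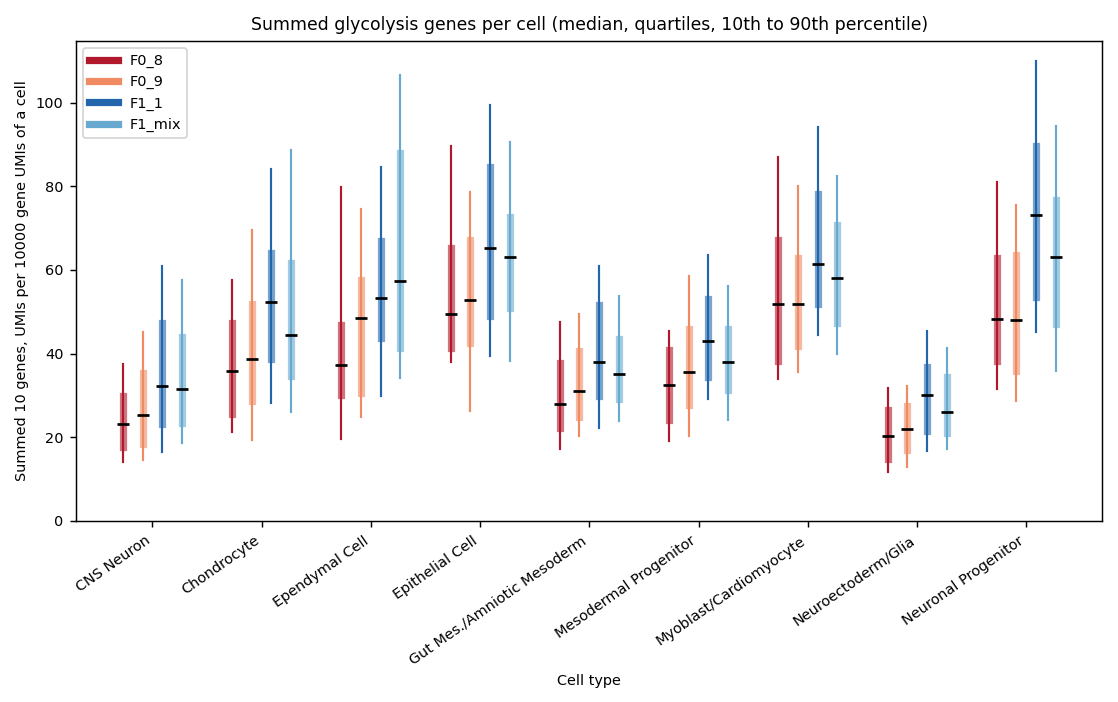
Summed level of the 10 genes per cell (y axis, UMIs per 10000 gene UMIs of that cell, cells with at least 5000 UMIs) in 9 cell types (x axis), for the 4 suspensions. The black mark is the median, the thick bar the quartiles and the thin line the 10th to 90th percentile, and in each type the 2 founder medians (red, orange) lie below the 2 F1 medians (blue).

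The genes of other steps and isozymes did not all share the order. Averaged over the 9 deep types, their summed level was 3.853 and 3.62 in the founders against 4.179 and 4.03 in F1. Both founders were lower in 5 of these types and higher in 0. The isomerase gene Gpi1, which turns glucose phosphate into fructose phosphate, was called lower in founders in Neuroectoderm/Glia alone (log2 ratio -0.78, edgeR quasi-likelihood adjusted p = 0.0491, from 1.38e-05 to 0.194 over the alternatives). Its scaled levels there were 0.788 and 0.9 in founders and 1.61 and 1.31 in F1, and its fitted log2 ratio was below 0 in 10 of 10 types. Pfkl, a subunit of the rate-limiting phosphofructokinase, was below 0 in 10 of 10 types and Eno3, the muscle enolase, in 6 of 6, yet neither was called in any by edgeR's quasi-likelihood test or DESeq2, with 2 and 4 types at an unadjusted p under 0.05. Hk1, the housekeeping hexokinase, was below 0 in 2 of 9 types and Pfkm, the muscle phosphofructokinase subunit, in 2 of 8. Neither was called, and neither had a type with an unadjusted p under 0.05. Slc2a3, Pfkp, Pgam2 and Eno2 were fitted in 6, 3, 1 and 1 types with no call, and Aldoc and Pklr did not pass the filter on low counts in any. In all, the list of other glycolytic enzymes had 1 of 74 pairs called lower and 0 higher by edgeR's quasi-likelihood test, with 10 (13.51%) lower and 1 (1.351%) higher at an unadjusted p under 0.05, and DESeq2 called 0. Over all features 0.26% of pairs were called lower and 0.492% higher, and 4.849% and 5.309% were at an unadjusted p under 0.05.

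Around the pathway, 86 genes in 7 lists were counted (other glycolytic enzymes, transport of sugar and lactate, the fates of pyruvate, the pentose phosphate and serine branches, hypoxia factors, hypoxia targets outside glycolysis, and splicing factors of Pkm with Myc and Mycn). Of them 71 passed the filter in at least 1 type, giving 593 pairs. By edgeR's quasi-likelihood test 3 pairs were called lower in founders and 0 higher, against 0.26% and 0.492% of all pairs, and DESeq2 called 2 (Ldhb in Ependymal Cell and Mif in Gut Mesenchyme/Amniotic Mesoderm) and 0. At an unadjusted p under 0.05, 71 pairs (11.97%) were lower and 21 (3.541%) higher, against 4.849% and 5.309% over all features.

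The other 2 calls were a lactate exporter and a cytokine. Slc16a3, which encodes the lactate exporter MCT4, was called lower in founders in CNS Neuron (log2 ratio -2.52, edgeR quasi-likelihood adjusted p = 0.043, from 7.35e-05 to 0.451 over the alternatives). It was rare, with 4 and 4 UMIs in the founders and 24 and 22 in F1. The pair thus passed the filter on low counts through F1 alone, where it was high, so this call is a description. Mif, a cytokine gene that is also a hypoxia target, was called lower in Gut Mesenchyme/Amniotic Mesoderm (log2 ratio -0.37, edgeR quasi-likelihood adjusted p = 0.0296, from 1.18e-07 to 0.288). Its levels there were 6.159 and 7.008 in founders and 8.389 and 8.407 in F1.

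By list, the genes for transport of sugar and lactate summed to 5.564 and 5.684 in the founders against 5.391 and 5.39 in F1 as a mean over the 9 deep types, so the sum did not share the order of the glycolysis genes. Most of that sum was Bsg, which encodes a chaperone of the lactate carriers and had a fitted log2 ratio below 0 in 3 of 11 types (median 0.07). Among the carriers, Slc16a3 was below 0 in 9 of 9 types (median -0.42), Slc16a1 in 6 of 7 (median -0.30) and Slc16a7 in 2 of 7 (median 0.48). The genes for the fates of pyruvate had 8.975, 8.766, 8.791 and 9.624, with overlap. Hypoxia factors such as Hif1a, Arnt and Egln1 had 3.348, 3.375, 3.475 and 3.527, with both founders lower in 4 of 9 deep types and higher in 1. None of their 61 pairs was called by edgeR's quasi-likelihood test or DESeq2. At an unadjusted p under 0.05, 3 (4.918%) were lower and 1 (1.639%) higher, near the 4.849% lower over all features. Hypoxia targets outside glycolysis had 16.79 and 16.99 in founders and 19.36 and 18.59 in F1, and both founders were lower in 7 of 9 deep types. Mif held a large part of that sum (6.159 to 8.407 in Gut Mesenchyme/Amniotic Mesoderm). Gene by gene, the median fitted log2 ratio was below 0 for 9 of 14 genes, with a median of -0.06 over them, and above 0 for Plod1 (0.31), Plod2 (0.24), P4ha1 (0.12), Ero1l (0.07) and P4ha2 (0.0045). At an unadjusted p under 0.05, 16 of 129 pairs (12.4%) were lower and 4 (3.101%) higher, against 4.849% and 5.309% over all features. Splicing factors of Pkm with Myc and Mycn had 27.67 and 28.22 against 30.02 and 30.09, also lower in 7 of 9. Most of that sum was Hnrnpa1, Hnrnpa2b1 and Srsf3. Gene by gene, the median fitted log2 ratio was below 0 for 5 of 6 genes, all but Myc (0.05). Of 64 pairs, 0 were called by edgeR's quasi-likelihood test or DESeq2, with 15 (23.44%) lower and 0 higher at an unadjusted p under 0.05. The pentose phosphate and serine branches had 9.266 and 9.17 against 9.875 and 9.873. Both founders were lower in 5 of 9 deep types and higher in 0. Of 106 pairs, 0 were called by either tool, with 13 (12.26%) lower and 1 (0.943%) higher at an unadjusted p under 0.05.

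**Figure D5:**
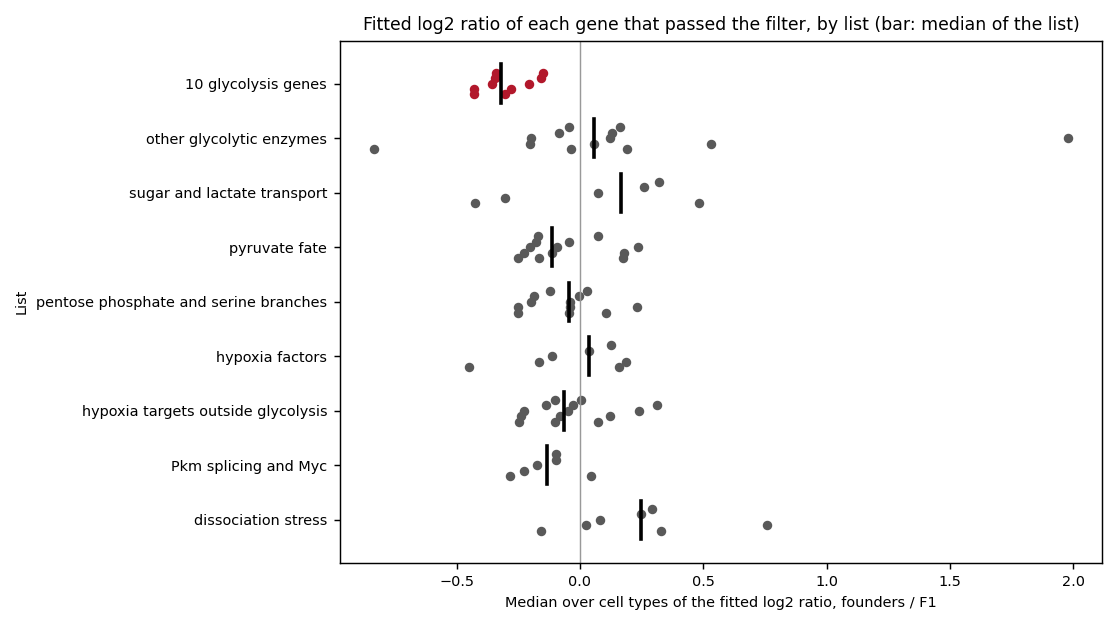
Fitted log2 ratio of founders to F1 (x axis), as the median over the cell types in which a gene passed the filter, for the genes of 9 lists (y axis), with a point per gene and a bar at the median of the list. The 10 glycolysis genes (red, chosen on this contrast) run from -0.43 to -0.15 with a median of -0.32, and the medians of the other lists run from -0.14 for splicing and Myc to 0.25 for dissociation stress.

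Immediate early genes, which respond to tissue dissociation, had the other order as a sum, though not each gene did. The 10 listed genes (Fos, Fosb, Jun, Junb, Egr1, Atf3, Ier2, Dusp1, Hspa1a and Hspa1b) summed to 8.155 and 8.658 in the founders against 6.253 and 6.816 in F1 as a mean over the 9 fitted deep types. The sums ran from 1.769 to 16.21 in founders and from 2.25 to 13.06 in F1, with no gene of the list at 0. Both founders were higher in 5 of the 9 types and lower in 2. Of the 7 genes that passed the filter, Ier2 had a median fitted log2 ratio of -0.16, below 0 in 6 of 10 types. Dusp1 (0.02) and Fosb (0.08) were near 0, and Egr1 had the highest median at 0.76. Of 69 pairs, 4 were called higher in founders and 0 lower by edgeR's quasi-likelihood test, against 0.492% and 0.26% of all pairs, with 23 higher and 4 lower at an unadjusted p under 0.05, and DESeq2 called 4 and 0. Egr1 was called higher in Mesodermal Progenitor (log2 ratio 1.25, edgeR quasi-likelihood adjusted p = 0.00105, from 1.89e-15 to 0.00817 over the alternatives). The other 3 calls were each lost under some alternative. They were Egr1 in Gut Mesenchyme/Amniotic Mesoderm (edgeR quasi-likelihood adjusted p = 0.00666, from 2.07e-09 to 0.0596), Jun in that type (0.00938, from 2.59e-08 to 0.121) and Fos in Mesodermal Progenitor (0.0299, from 0.000362 to 0.394). DESeq2 did not call Fos and called Egr1 in Myoblast/Cardiomyocyte as well. The part of dissociation in the glycolysis values was not tested.

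In the fitted deep types globin RNA mostly overlapped between the generations. The 9 fitted deep types leave out Erythroblast, Erythrocyte and Hematoendothelial Progenitor/Endothelium. Averaged over these 9 types, the summed level of 7 globin genes was 1.294 and 9.77 in the founders against 1.272 and 1.252 in F1. The high value came from Myoblast/Cardiomyocyte of F0_9, at 77.45, where 1 of 115 cells held 10 or more globin UMIs. Both founders were higher in 2 of these types and lower in 1. In Hematoendothelial Progenitor/Endothelium, F1_1 stood apart, with Hbb-y at 217.7 and Hba-x at 121.2 against 0.0981 to 0.491 for these genes in the other 3 suspensions. In the shallow Foregut, Hbb-bs was called higher in founders (log2 ratio 2.82, edgeR quasi-likelihood adjusted p = 0.000128, from 3.82e-08 to 0.886 over the alternatives), with scaled levels of 6.35 and 1.83 in founders and 0.894 and 0.289 in F1. Without cells of 10 or more globin UMIs, an alternative chosen after seeing the data, the median log2 ratio of the summed glycolysis genes was -0.38, against -0.38 with them.

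The genes whose level followed that of Pkm most closely over the 36 sums of 9 deep types and 4 suspensions were not glycolytic. Among 4018 genes with a mean level of at least 0.5, the highest Pearson correlations of log2(level + 0.1) were those of Cdc34 (0.79), Idi1 (0.78), Hsp90aa1 (0.77), Eif5 (0.76) and Got2 (0.76). Cdc34 encodes a ubiquitin-conjugating enzyme, Idi1 an enzyme of isoprenoid synthesis, Hsp90aa1 a chaperone, Eif5 a translation initiation factor and Got2 the mitochondrial aspartate aminotransferase. Of the other 9 glycolysis genes the closest was Pgk1, with 0.66 at rank 19, then Gapdh, with 0.52 at rank 119, and Ldha had 0.38 at rank 364. The sums share 4 suspensions, 1 library and the differences between types, so these values are a description.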

How the data were processed

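Gene expression of 4 multiplexed suspensions of E11.5 mouse embryos was read from 1 droplet library of 3′ tags. UMI counts per feature and barcode were deposited by the authors, who ran Cell Ranger (release 7.2.0 according to the file headers) against GRCm38 with the EGFP sequence added. No source used here gives the annotation release. Suspension and cell type of each cell came from the table deposited by the authors, after their quality limits, SoupX, DoubletFinder, RECODE and Seurat clustering, none of which was repeated. Their methods exclude cells with 5% or more mitochondrial transcripts, but in the deposited counts the median cell of each shallow type was above that limit, and these cells were kept here. Its 20 other columns were not used. Doublets were treated only as the authors had done. The generation of a suspension was taken from the design text of the series.

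UMIs were summed per cell type and suspension and divided by gene UMIs times 10000. Intervals are exact Poisson at 95% and cover counting error only. Each of 13 cell types with 20 or more cells in every suspension was fitted alone with edgeR 4.0.16 in R 4.3.3 (quasi-likelihood test, TMM, filterByExpr by generation, Benjamini-Hochberg adjustment within the type, threshold 0.05), and with DESeq2 1.42.0 as an alternative. The scripts were tested on simulated data. Suspensions, not cells, were the replicates, and nothing says that 2 suspensions stand for the spread between embryos of a generation. Ratios are differences of mean log2 levels without a pseudocount, left out where a suspension held 0 UMIs. A pseudocount of 0.1 was added for the likeness to Pkm.

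The 10 genes, the lists and the markers were chosen with earlier results of these data known. A marker in each of 2 cell type lists is not reported here and was left out of the sums. From the other lists, the genes called in the most cell types (up to 5 per list) and the isozymes of the 10 genes were named, and for the likeness the 5 genes with the highest correlation. Promoter windows and gene positions came from RefSeq tables on GRCm38.p6, in which all 10 genes matched. The genome at hand was of an older build and was not used. Alternatives were other scalings, filters, tools, cell limits and leaving out each suspension. An alternative, leaving out cells with 10 or more globin UMIs, was chosen after seeing the data. Python 3.11.15, numpy 2.4.6, pandas 2.3.3, scipy 1.17.1 and matplotlib 3.10.9 were used.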

Additional observations from a re-analysis of the deposited data

Results flagged for a closer look

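For 3 of the glycolysis genes the founders were below F1 in some cell types and above F1 in another, with no overlap of the suspensions in either case. Aldoa had both founders below both F1 suspensions in 6 fitted cell types and above them in 1, Foregut, where the 4 suspensions held 6, 4, 3 and 6 UMIs. Pgk1 was below in 8 types and above in 1, Midgut, on 9, 3, 5 and 4 UMIs. Tpi1 was below in 7 types and above in 1, Gut Mesenchyme/Amniotic Mesoderm, on 1002, 681, 410 and 610 UMIs, with levels of 3.049 and 3.019 in founders and 2.937 and 2.881 in F1 whose exact Poisson intervals (95%, counting error only) overlapped. The difference between cell types was not tested.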

How the results depend on the processing

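Each generation had 2 suspensions, so leaving 1 out leaves a lone suspension that is assumed to vary like the other generation. Over all features, 746 pairs of a feature and a cell type were called. There were 3154 without the filter on low counts, 434 with the DESeq2 Wald test, and 511 to 1585 when a suspension was left out (1585 without F0_9, 1422 without F1_1 and 1498 without F1_mix). The 3 called pairs of the other pathway genes became 29 without the filter and 1 to 10 when a suspension was left out (1 without F0_8, 8 without F0_9, 7 without F1_1 and 10 without F1_mix). The 16 calls of the glycolysis genes became 2 without F0_8, 22 without F0_9, 15 without F1_1, 27 without F1_mix, 32 without the filter and 14 with DESeq2. The median log2 ratio of their summed level stayed between -0.43 and -0.30 over all alternatives run. That of Hk2 was -0.21 and ran from -0.28 to 0.11 when a suspension was left out, turning positive without F0_9; the cause was not tested. Per 10000 UMIs outside mitochondrial, globin and EGFP features, the summed level was 27.15 in Endodermal Progenitor, 22.12 in Erythrocyte, 18.58 in Foregut and 8.234 in Midgut, above the values in all gene UMIs. No paired analysis was possible because the numbers of the suspensions do not pair founders with F1 embryos. Hk2 and the shallow types are limited by their few UMIs.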
